A study of Mus musculus with 12 samples.

Results

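The genes described here are Pparg, Ppard, Nr1h3 and Rarg, the lipid and retinoid nuclear receptor genes of a table of 658 genes from mouse bone marrow mesenchymal stem cells (BMSCs). They were taken by symbol, and all 4 were in the table and passed the filter on low values. BMSCs are the adherent stromal cells of bone marrow, which can form bone, fat and cartilage. All 12 RNA libraries came from wild-type (WT) cells in osteogenic medium, a bone-forming medium with dexamethasone, β-glycerophosphate and ascorbic acid, and 6 of them came from cells that also received α-asarone, a phenylpropanoid of Acorus plants (spelled α-Asaronel in the labels). The sources used here do not give the strain, age or number of animals, nor the dose and time of α-asarone. Replicates are called biological in the design text, but separate cultures or animals are not named, so p-values measure only the spread among the sequenced libraries.

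Nuclear receptors are transcription factors that bind DNA through paired zinc fingers and change their activity when a ligand enters a second domain. PPARγ (Pparg), PPARδ (Ppard), LXRα (Nr1h3) and RARγ (Rarg) act as heterodimers with the retinoid X receptors, and their ligands are fatty acids and their derivatives, oxysterols, and retinoic acid. In marrow stroma PPARγ is known as the master regulator of fat cell formation, PPARδ promotes fatty acid oxidation, LXRα drives cholesterol efflux and lipogenesis and is abundant in macrophages, and RARγ mediates retinoid effects on cartilage and bone.

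The shared DNA-binding fold can be read in the coding bases of the first zinc finger and the 12 codons after it, which are shown because they are what makes these genes members of one family. Each run has 99 bases, read 5′ to 3′ on the coding strand from GRCm38 with the GENCODE annotation, and capitals mark the 51 bases that are the same in the 3 genes shown, Ppard, Nr1h3 and Rarg.
Ppard: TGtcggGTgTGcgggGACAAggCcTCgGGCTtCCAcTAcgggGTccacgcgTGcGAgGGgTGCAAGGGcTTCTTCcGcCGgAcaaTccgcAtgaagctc
Nr1h3: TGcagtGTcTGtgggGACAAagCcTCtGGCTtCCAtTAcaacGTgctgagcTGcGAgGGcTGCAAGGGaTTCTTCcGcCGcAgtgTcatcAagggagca
Rarg: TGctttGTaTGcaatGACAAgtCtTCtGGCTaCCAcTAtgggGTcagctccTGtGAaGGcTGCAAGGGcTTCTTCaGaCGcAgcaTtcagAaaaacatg
Ppard matched Nr1h3 at 67.7% and Rarg at 66.7% of these bases, and Nr1h3 and Rarg, the most distant pair of the 3, matched at 59.6%. In Ppard it lies in exon 4 (chr17:28295430-28295495, plus strand) and exon 5 (chr17:28297086-28297118), and in Rarg in exon 4 (chr15:102241836-102241901, minus strand) and exon 5 (chr15:102241167-102241199). In Nr1h3 the whole run lies in exon 4 (chr2:91191898-91191996, minus strand), so that this gene alone among the 3 has no intron within these bases.

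With α-asarone, Nr1h3 rose 1.41-fold and Rarg fell to 0.841 of its control level, whereas Pparg and Ppard did not pass the test. Of the 4 receptor genes, 2 were thus called, beside 30.3% of all 512 genes tested (edgeR's quasi-likelihood test on estimated counts, Benjamini-Hochberg adjusted p under 0.05 over all genes tested). The higher calls made up 12.9% of all genes tested and the lower calls 17.4%. The median log2 fold change over all genes tested was 0.00069 and the median of its size was 0.083, so that the changes of Nr1h3 and Rarg ranked 24 and 68 by size among the 512. In bulk RNA, fewer cells of a type and less RNA per cell cannot be told apart.

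Pparg (ENSMUSG00000000440, chromosome 6, 115360951 to 115490399, plus strand, GRCm38) is the receptor named in the series title. With α-asarone its level in replicates 1 to 6 was 39.0, 45.2, 40.3, 37.5, 42.5 and 36.4 TPM (a level per transcript length, scaled to a fixed total). In controls it was 41.4, 40.4, 43.5, 44.2, 41.6 and 38.9 TPM. The groups overlapped, and the α-asarone libraries held both the highest and the lowest of the 12 values. The control mean was 41.7 ± 1.97 TPM (SD, n = 6), and the α-asarone mean was 40.2 ± 3.26 TPM (SD, n = 6). Pparg had a log2 fold change of -0.05 (SE 0.05), a change of -3.61% with a 95% confidence interval from -10.0% to 3.29% (edgeR adjusted p = 0.43, exact 2-sided permutation p = 0.327). The estimated counts behind these values were 497 to 801 per library. The interval comes from the spread in edgeR's fit, which draws on all genes tested. A rise of more than 3.29% or a fall of more than 10.0% lies outside that interval.

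Ppard (ENSMUSG00000002250, chromosome 17, 28232700 to 28301474, plus strand) encodes the PPAR expressed in most tissues. Its level with α-asarone was 25.7, 22.6, 26.4, 25.0, 21.6 and 24.4 TPM in replicates 1 to 6. In controls it was 25.3, 26.9, 28.9, 23.3, 25.3 and 25.3 TPM. The values overlapped, with the 2 lowest levels in α-asarone libraries and the 2 highest in control libraries. Means were 24.3 ± 1.86 TPM (SD, n = 6) against 25.8 ± 1.89 TPM (SD, n = 6) in controls, a log2 fold change of -0.11 (SE 0.05). The 95% interval ran from -13.8% to -0.181%, and the gene did not pass over all genes tested (edgeR p = 0.0449, adjusted p = 0.117, exact permutation p = 0.184). Without α-asarone replicate 3 it was called, with a log2 fold change of -0.14 (edgeR adjusted p = 0.0391).

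Nr1h3 (ENSMUSG00000002108, chromosome 2, 91184061 to 91202834, minus strand) encodes the oxysterol receptor LXRα. Its level with α-asarone was 19.7, 21.1, 19.6, 19.7, 18.8 and 19.5 TPM in replicates 1 to 6. In controls it was 13.2, 15.1, 13.2, 15.1, 15.9 and 11.6 TPM. Every α-asarone library lay above every control library, with a gap of 2.83 TPM between the groups, beside 5.86% of all genes tested that were separated in this direction. The mean rose from 14.04 ± 1.63 TPM in controls (SD, n = 6) to 19.7 ± 0.775 TPM (SD, n = 6). This is a log2 fold change of 0.50 (SE 0.07), a rise of 41.0% with a 95% interval from 27.6% to 55.8% (edgeR adjusted p = 1.76e-06, exact permutation p = 0.00216, the smallest that 6 against 6 libraries allow). Estimated counts were 266 to 365 per library with α-asarone and 188 to 263 in controls, the lowest of the 4 genes. The coefficient of variation over libraries was 3.93% with α-asarone and 11.6% in controls, where counting error alone gives 5.72% and 6.73%. Exons of Nr1h3 overlap those of the annotated gene Gm13783 on the same strand, and its estimated counts were whole numbers in every library.

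Rarg (ENSMUSG00000001288, chromosome 15, 102234938 to 102257517, minus strand) encodes the retinoic acid receptor γ. Its level with α-asarone was 42.4, 42.7, 41.7, 44.9, 43.8 and 43.1 TPM in replicates 1 to 6. In controls it was 48.3, 51.6, 49.5, 51.3, 52.1 and 48.2 TPM. Every α-asarone library lay below every control library, with a gap of 3.38 TPM, beside 8.4% of all genes tested that were separated in this direction. The mean fell from 50.2 ± 1.74 TPM in controls (SD, n = 6) to 43.1 ± 1.105 TPM (SD, n = 6). This is a log2 fold change of -0.25 (SE 0.03), a change of -15.9% with a 95% interval from -19.7% to -11.9% (edgeR adjusted p = 4.15e-07, exact permutation p = 0.00216). Rarg had the most estimated counts of the 4 genes, 896 to 1354 per library, and the smallest coefficients of variation, 2.56% with α-asarone and 3.46% in controls.

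**Figure D1:**
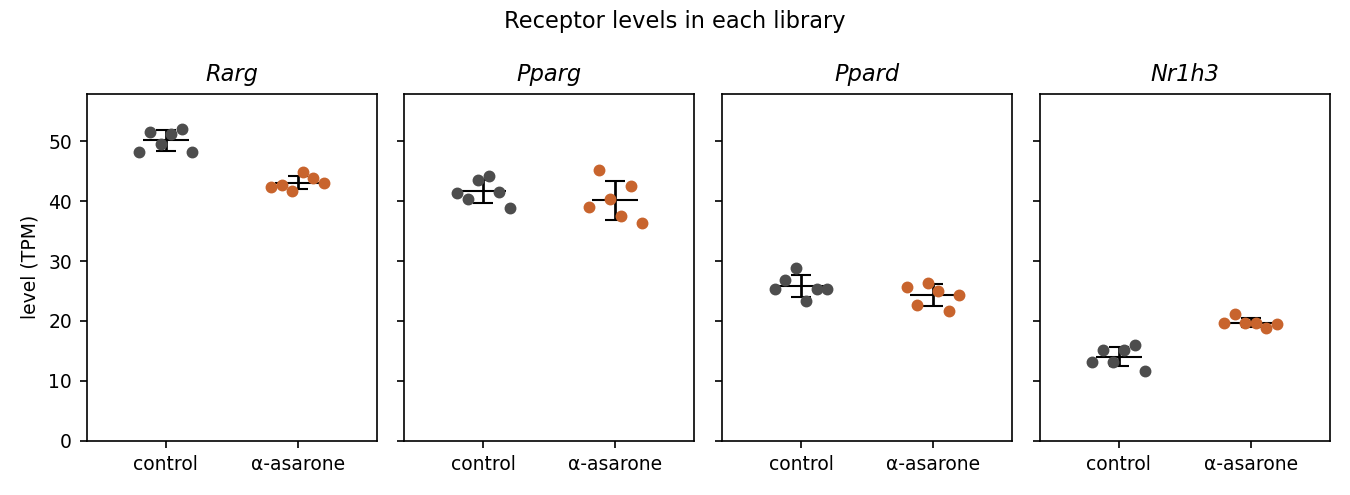
Level of each receptor gene in TPM (vertical axes) in the 6 control and 6 α-asarone libraries; points are libraries and the bars are means with SD. The groups of Nr1h3 and Rarg do not overlap (gaps of 2.83 and 3.38 TPM), whereas those of Pparg and Ppard do.

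The calls of Nr1h3 and Rarg held under each of the 24 alternatives run for them, other scalings, filters, tests and single libraries left out among them. The log2 fold change of Nr1h3 ranged from 0.38 to 0.54 and that of Rarg from -0.26 to -0.20, and the highest adjusted p of either was 0.0152, in the exact rank-sum test. Pparg passed under none of its 24 alternatives, at log2 fold changes from -0.089 to -0.0091.

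The 4 receptors can be ranked within a group, since TPM is a level per length. The order was Rarg, Pparg, Ppard and Nr1h3 in both groups. In controls Rarg was 1.20-fold above Pparg, Pparg 1.61-fold above Ppard and Ppard 1.85-fold above Nr1h3, each in 6 of 6 libraries (exact sign-flip test, p = 0.03125, the smallest that 6 libraries allow, adjusted p = 0.0341 over the 12 pairs and groups compared). With α-asarone the step from Pparg to Ppard was 1.65-fold and that from Ppard to Nr1h3 1.23-fold, both again in 6 of 6 libraries with the same exact p. Rarg and Pparg were not told apart beyond their spread with α-asarone, where Rarg was 1.08-fold above Pparg on average and above it in 5 of 6 libraries (exact sign-flip p = 0.125, adjusted p = 0.125).

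Ratios between receptors of one library do not depend on how libraries are scaled, and they test whether the genes differ in their change. The TPM ratio of Rarg to Nr1h3 was 3.59 in controls and 2.18 with α-asarone, a log2 difference of -0.72, and no α-asarone library reached the control range. The ratio of Pparg to Nr1h3 went from 2.98 to 2.03 and that of Ppard to Nr1h3 from 1.85 to 1.23, also without overlap. Each of these 3 differences had an exact permutation p of 0.00216 and an adjusted p of 0.00433 over the 6 pairs. The change of Nr1h3 thus differed from that of each other receptor.

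The ratio of Rarg to Pparg went from 1.20 to 1.08, with overlapping groups (log2 difference -0.16, exact permutation p = 0.026, adjusted p = 0.039). It no longer passed when any 1 of 7 libraries was left out (α-asarone replicates 1, 2, 3 and 5 and control replicates 2, 5 and 6), with exact adjusted p-values between 0.0519 and 0.0779. The ratio of Rarg to Ppard went from 1.95 to 1.78 and did not pass (log2 difference -0.13, exact permutation adjusted p = 0.135), except without control replicate 3 (adjusted p = 0.0494) or with the replicate number as a block (exact adjusted p = 0.0469), a fit in which the ratio of Rarg to Pparg did not pass (exact adjusted p = 0.075). The ratio of the PPAR genes, Pparg to Ppard, was 1.61 in controls and 1.65 with α-asarone (log2 difference 0.03, exact permutation adjusted p = 0.827). Rarg thus changed differently from Nr1h3, while its ratios to Pparg and Ppard passed or failed with the libraries and the fit used.

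**Figure D2:**
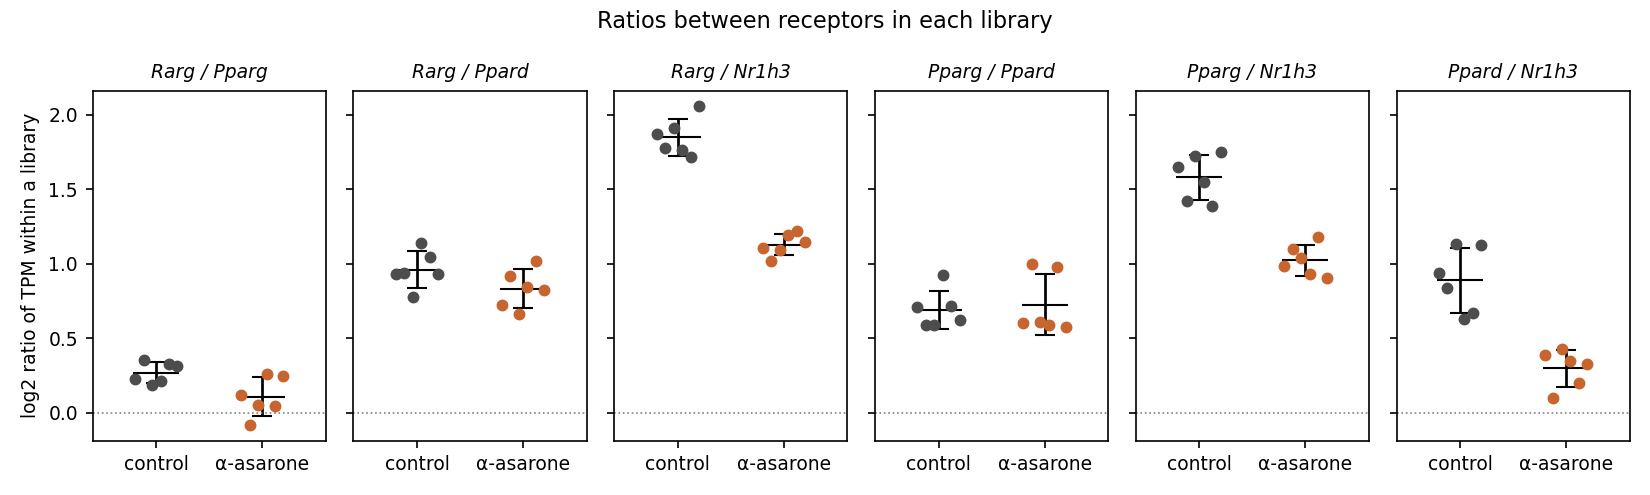
TPM ratio of each pair of receptors in each library, on a log2 axis, for control and α-asarone libraries; points are libraries and the bars are means with SD. The 3 pairs with Nr1h3 as the lower gene are separated between the groups, with mean log2 differences of -0.72, -0.55 and -0.59, and the other 3 pairs overlap.

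Nr1h3 took a larger part of the 4 receptors' summed TPM with α-asarone, and Rarg a smaller one. The share of Nr1h3 was 10.6% ± 0.969 (SD, n = 6) in controls, between 9.34% and 11.8%, and 15.5% ± 0.429 (SD, n = 6) with α-asarone, between 14.8% and 16.07%. The share of Rarg was 38.1% ± 0.838 (SD, n = 6) in controls and 33.9% ± 1.24 (SD, n = 6) with α-asarone. Both shares were separated between the groups (exact permutation p = 0.00216, adjusted p = 0.00433 over the 4 receptors). Pparg kept a share of 31.6% ± 1.07 against 31.5% ± 2.04 (SD, n = 6 each, exact adjusted p = 0.90), and Ppard had 19.6% ± 1.39 against 19.1% ± 1.57 (SD, n = 6 each, exact adjusted p = 0.736). The sum itself was 127.3 ± 2.63 TPM with α-asarone, against 131.7 ± 4.59 TPM in controls (SD, n = 6 each, exact permutation p = 0.0736).

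**Figure D3:**
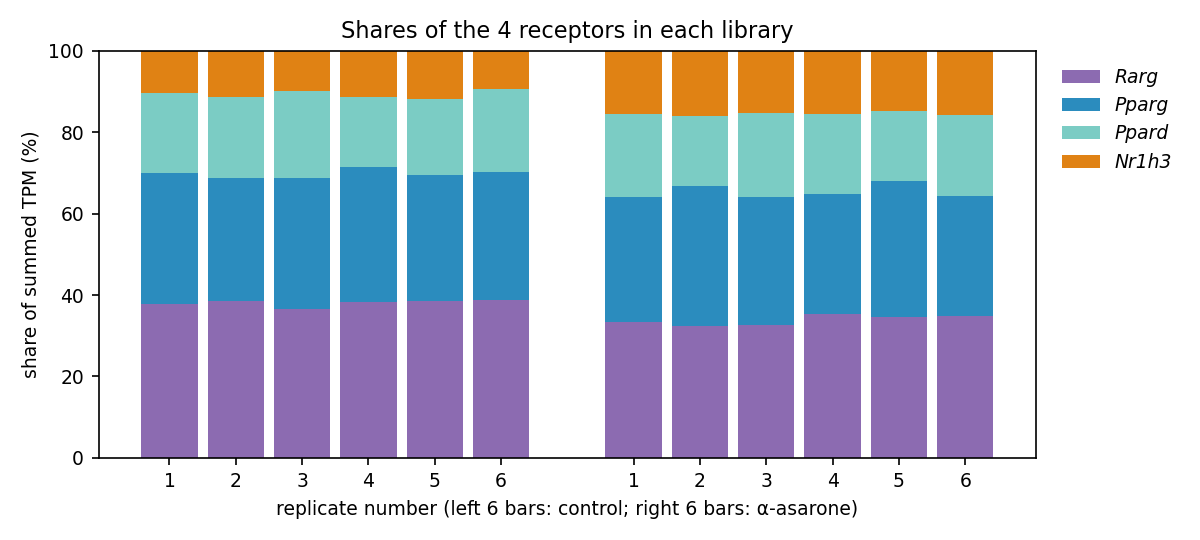
Share of each receptor, in percent of the summed TPM of the 4 genes, in each of the 12 libraries, drawn as stacked bars from 0. The Nr1h3 segment is 9.34% to 11.8% in controls and 14.8% to 16.07% with α-asarone, and the Rarg segment is smaller in every α-asarone library.

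All 4 genes have several annotated transcripts, 7 for Pparg, 9 for Ppard, 8 for Nr1h3 and 7 for Rarg, of which 5, 4, 4 and 5 are coding. The table gives values per gene only. The ratio of estimated count to TPM follows the length that the quantifier gave a gene in a library, and was divided by its median over the tested genes of that library. This relative length was 0.777 in controls and 0.780 with α-asarone for Pparg, 1.18 and 1.17 for Ppard, 0.755 and 0.758 for Nr1h3, and 1.18 and 1.16 for Rarg (exact permutation adjusted p = 0.775 for each over the 4 genes). A difference in length between the groups was therefore not detected for any of the 4. Its spread over the 12 libraries was widest for Ppard, with an SD of 0.079 on the log2 scale against a median of 0.023 over all genes tested.

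Nr1h3 and Rarg moved in opposite directions between the groups, yet their control libraries stood in the same order. From lowest to highest that order was control replicate 6, 1, 3, 4, 2 and 5 for both genes. For Nr1h3, control replicates 1 and 3 both had 13.2 TPM at the digits given, and replicates 4 and 2 both 15.1 TPM. Differences within these pairs were smaller than its counting error, 6.73% of its mean in controls. For Rarg, control replicates 6 and 1 (48.2 and 48.3 TPM) and replicates 4 and 2 (51.3 and 51.6 TPM) also differed by less than counting error. That error was 2.84% of the mean of Rarg in controls, so the order is only partly resolved for either gene. Of the other 511 genes tested, 2 had the order of Nr1h3 in controls, Rarg and the interferon-induced gene Mx1, the latter named after its values were seen. In the α-asarone libraries no tested gene had the order of Nr1h3. Shared orders also occurred for the other receptors. Pparg and Ppard each shared their control order with 1 gene, and Rarg shared its α-asarone order with 2. A count of 2 is therefore not set apart from those of the other receptors. Likeness was measured as the root-mean-square difference between standardised profiles of log2(TPM + 1), where 0 is an identical profile. Over all 12 libraries Nr1h3 and Rarg differed by 1.87, place 480 of 511, against a median of 1.41 over all genes. After each group's mean was subtracted they differed by 0.824, place 9 of 511, against a median of 1.35. These profiles share libraries and scaling, and the likeness is a description. The summed TPM of the 5 myeloid marker genes in the table was also lowest in control replicates 1, 3 and 6 (895 to 919 TPM) and higher in replicates 2, 4 and 5 (921 to 989 TPM), and its part in the shared order was not tested.

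The genes nearest to each receptor were named by the same measure over the 12 libraries. The difference between group means is part of these profiles, so nearness here includes a shared change between the groups. For Nr1h3 they were Slc1a5, a glutamine transporter gene (0.295), Angptl4, which encodes an inhibitor of lipoprotein lipase (0.363), and Mmd (0.392). For Rarg they were S100a4, a calcium-binding protein gene (0.318), Col1a1, which encodes the α1 chain of type I collagen (0.320), and Fkbp10, a collagen chaperone gene (0.321). The nearest genes of Ppard and Pparg were farther away. Ppard had Cdk12, a kinase gene of transcription elongation (0.506), Dlg3 (0.556) and Btbd2 (0.684), and Pparg had Abcf3 (0.739), Lmf1, a lipase maturation factor gene (0.759), and Zim1 (0.768).

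After group means were subtracted, so that only the variation among libraries of one group remained, the nearest genes changed. Of the genes named above, only Slc1a5 stayed among the 3 nearest of Nr1h3, and none stayed for Rarg. Nr1h3 had Btbd6 (0.361), Slc1a5 (0.582) and Foxm1 (0.690), and Rarg had Glmp (0.604), Bcl2l12 (0.619) and Crtc1 (0.652). Ppard kept Dlg3 (0.446) and Cdk12 (0.555), followed by Sec14l2 (0.602), and Pparg had Dnase2a (0.569), Meox1 (0.594) and Abcf3 (0.620). Slc1a5 therefore stood near Nr1h3 by both measures, as did Cdk12 and Dlg3 near Ppard and Abcf3 near Pparg. The 2 measures share the variation within groups, so they are not independent. Pparg and Ppard also differed little between groups (log2 fold changes -0.05 and -0.11), so keeping the same neighbours adds little for them.

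Target genes of the PPARs on a list of 64 rose in all 4 cases that were in the table, while 12.9% of all genes tested were called higher. Their median log2 fold change was 0.41, beside 0.00069 over all genes tested. Angptl4, a PPAR target in many tissues, went from 11.8 ± 0.963 to 32.0 ± 1.93 TPM (SD, n = 6), a difference of 1.44 on the log2 scale (SE 0.06, edgeR adjusted p = 1.31e-18). Plin4, a lipid droplet coat gene, went from 11.9 ± 0.505 to 16.1 ± 0.851 TPM (0.43 on the log2 scale, edgeR adjusted p = 5.28e-10), and Lipe, hormone-sensitive lipase, from 15.4 ± 0.950 to 20.9 ± 1.12 TPM (0.40, edgeR adjusted p = 1.23e-07). Exons of both overlap a gene on the opposite strand. Cd36, a fatty acid translocase and scavenger receptor, went from 308 ± 22.7 to 366 ± 38.8 TPM with overlapping groups (0.24, SE 0.05, edgeR adjusted p = 8.41e-04), and its call was lost in the exact rank-sum test (adjusted p = 0.0669). The rise of these targets stood beside Pparg and Ppard levels that did not pass, and the other 60 genes of the list were not analysed here. They had been seen to rise in these data before the list was used, so the count is no independent evidence.

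Of the 35 genes on a list of LXR targets, 2 were in the table, and neither of these 2 rose with Nr1h3. The list is not complete, and its membership decides this count. Apoc2, the apolipoprotein that activates lipoprotein lipase, went from 50.9 ± 2.53 to 27.0 ± 2.85 TPM (SD, n = 6, log2 fold change -0.91, SE 0.08, edgeR adjusted p = 6.27e-11), and every α-asarone library was below every control library. Its counts were not whole in 8 libraries and its exons overlap Gm44805 on the same strand, so its value is less certain. The level of Apoe, the apolipoprotein E gene, was 18857 ± 865 TPM with α-asarone beside 19102 ± 998 TPM in controls (-0.02, edgeR adjusted p = 0.741).

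Of 64 genes of retinoid transport, metabolism and response, 2 were in the table. Hoxc6, a homeobox gene of a retinoid-responsive cluster, went from 12.2 ± 0.659 to 9.16 ± 1.04 TPM (SD, n = 6, log2 fold change -0.41, SE 0.09, edgeR adjusted p = 4.88e-04). Hoxa4 was near the filter's floor, with 1.34 ± 0.374 TPM after α-asarone and 1.27 ± 0.602 TPM in controls, and did not pass (edgeR adjusted p = 0.848). Among the 6 tested genes besides the receptors that the deposited annotation ties to the retinoic acid response, a group added after the table was seen, 1 was higher and 3 were lower, beside 12.9% and 17.4% of all genes tested. Since the group was chosen with values known, nothing is read from that count. Tbx2 was higher (log2 fold change 0.27, edgeR adjusted p = 0.0304), a call lost without any 1 of α-asarone replicates 3, 4, 5 and 6 or control replicates 1, 3, 4 and 6 (edgeR adjusted p between 0.0535 and 0.0796), and Klf4 (-0.31), Col1a1 (-0.50) and Sox9 (-0.26) were lower. The groups of Sox9 overlapped, and its call was lost with limma on log2(TPM + 0.1) (adjusted p = 0.0509) and in the exact rank-sum test (adjusted p = 0.136).

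Partners of the receptors were thinly covered. Nr2f6, the 1 tested gene of 45 other nuclear receptors, was at 21.2 ± 1.14 TPM with α-asarone beside 19.7 ± 1.53 TPM in controls (SD, n = 6, 0.11 on the log2 scale, edgeR adjusted p = 0.177), and passed with table totals as library sizes (adjusted p = 0.043). Its counts were not whole in any library, and its exons overlap Ocel1 on the opposite strand. Kat2b, a histone acetyltransferase and the 1 tested gene of 52 coactivators and corepressors, had 37.6 ± 2.51 and 36.7 ± 2.03 TPM (-0.02, edgeR adjusted p = 0.693). The deposited annotation ties 5 other tested genes to receptor binding or coactivators, a group also added after the table was seen. Of these, 1 was higher and 2 were lower, beside 12.9% and 17.4% of all genes tested. Wdr77 rose (0.20, edgeR adjusted p = 1.90e-04), and Brd8 (-0.10, edgeR adjusted p = 0.0272) and Calr (-0.09, edgeR adjusted p = 0.00601) fell. The calls of Wdr77 and Brd8 were lost in the exact rank-sum test, and those of Brd8 and Calr with table totals. Brd8 also lost its call without α-asarone replicate 3, 4 or 6, or without control replicate 2 or 3. Its edgeR adjusted p-values were then between 0.0565 and 0.0725. The retinoid X receptors were not analysed here.

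**Figure D4:**
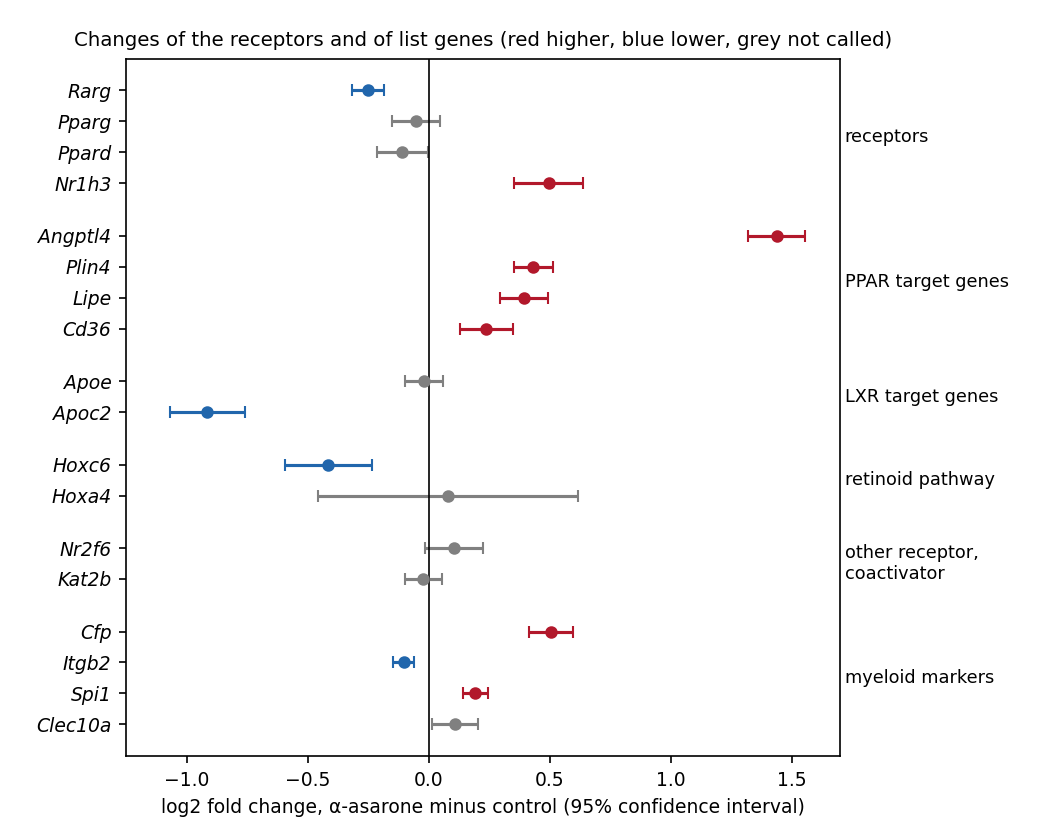
Log2 fold change, α-asarone minus control, of the 4 receptors and of genes named from the target, partner and myeloid marker lists (red higher, blue lower, grey not called); bars are 95% confidence intervals from edgeR's fit and the line marks 0. Angptl4 lies farthest to the right at 1.44 and Apoc2 farthest to the left at -0.91, with Nr1h3 at 0.50 and Rarg at -0.25 between them.

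The table is part of each library's transcriptome, with 843595 to 1224256 estimated counts per library over the 658 genes and 5.36% to 5.67% of all TPM. Stromal identity rested on few genes, with 1 of 15 mesenchymal stromal markers tested, Col6a1 (641 to 724 TPM in the group means, log2 fold change 0.18), and 2 of 18 osteoblast and osteocyte markers tested, of which Col1a1 fell from 1852 to 1304 TPM and Dlx3 did not pass (edgeR adjusted p = 0.248). The bone markers Sost and Fgf23 did not pass the filter, and Sost was at 0 in every library. Single markers of other lineages were also measured. Acp5 of osteoclasts fell (-1.14), Cnn1 of smooth muscle fell (-1.71), Sox9 of cartilage fell in edgeR's test (-0.26) and Lipe of fat rose (0.40). Endothelial markers summed to 0.684 to 2.11 TPM and lymphocyte markers to at most 0.253 TPM, with Vpreb3 and Cd3g at 0 in every library.

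Macrophage and myeloid markers were abundant in cells labelled as stromal. Of their 5 tested genes, 2 were higher with α-asarone, 1 was lower and 2 did not pass. Among all genes tested, 12.9% were higher and 17.4% lower. These 5 of 44 genes summed to 1023 to 1185 TPM with α-asarone, against 895 to 989 TPM in controls, without overlap, and none of the 5 was at 0. Without Cfp, a sum chosen after its values were seen, the groups overlapped, at 586 to 634 TPM with α-asarone and 589 to 622 TPM in controls. Cfp, properdin, went from 332 to 469 TPM (0.51 on the log2 scale, edgeR adjusted p = 1.52e-10), and Spi1, which encodes the myeloid factor PU.1, from 143 to 163 TPM (0.19, edgeR adjusted p = 6.37e-07). Itgb2, an integrin chain gene of leukocytes, went the other way, from 293 to 273 TPM (-0.10, edgeR adjusted p = 5.27e-04), a call lost with table totals as library sizes (adjusted p = 0.0518). Clec10a, a lectin gene, did not pass (0.11, edgeR adjusted p = 0.0717). The part of these markers in the rise of Nr1h3 was not tested.

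The bases before the annotated start sites of the called receptors are shown because Nr1h3 and Rarg moved in opposite directions. They come from the RefSeq promoter table (GRCm38), in which Ppard, Nr1h3 and Rarg had 5 windows, and bases inside annotated exons were left out. Nr1h3 and Rarg each have several windows, and the one farthest upstream is shown. That of Nr1h3 lies inside the annotated span of the gene (91184061 to 91202834), downstream of the span's 5′ end. The motifs searched on both strands were the receptor half-site AGGTCA, its direct repeats with 1, 4 or 5 bases between, which PPAR, LXR and RAR dimers are known to bind, and the GC box GGGCGG. Capitals mark the half-site and the GC box.
Nr1h3, chr2:91195152-91195366, minus strand: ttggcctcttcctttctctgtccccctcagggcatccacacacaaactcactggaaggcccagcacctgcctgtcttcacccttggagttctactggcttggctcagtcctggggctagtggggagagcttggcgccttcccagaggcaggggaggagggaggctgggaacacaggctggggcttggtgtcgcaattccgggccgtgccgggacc
Rarg, chr15:102257523-102257772, minus strand: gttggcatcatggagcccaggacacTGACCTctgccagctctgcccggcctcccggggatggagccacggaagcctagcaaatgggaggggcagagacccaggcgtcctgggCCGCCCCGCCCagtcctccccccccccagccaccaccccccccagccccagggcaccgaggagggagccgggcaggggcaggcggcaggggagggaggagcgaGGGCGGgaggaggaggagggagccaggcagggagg
The Rarg window held 1 half-site, read on the opposite strand, and 3 GC boxes, 2 of which overlap, and the Nr1h3 window held neither. The other Rarg window, before the start at 102246500, and the other Nr1h3 window also held neither. The window of Ppard, which was not called, held 3 GC boxes and no half-site. Among 32851 windows of 250 bases before annotated starts, 14% held the half-site and 32.7% the GC box. The direct repeats were in 0.0335%, 0.0152% and 0.00913% of those windows for spacings of 1, 4 and 5 bases, and in none of the 5 receptor windows. A match or its absence describes these letters only.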

How the data were processed

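The authors deposited 1 table of TPM values and estimated counts with 2 decimals, per the file headers; builds GRCm38 and mm10 are named in the submitters' processing notes. The aligner and quantifier were not given in the sources used here. Between 7.45% and 9.57% of a library's estimated counts were not whole. Estimated counts were rounded and tested with edgeR 4.0.16 (R 4.3.3, quasi-likelihood, TMM factors 0.976 to 1.03) on the 512 of 658 genes with at least 1 TPM in at least 6 libraries, with Benjamini-Hochberg adjustment. Counts of 512 genes were simulated for these groups in a single run, with each fold change put into a small part of the genes. Of the changes put in, 66% of 1.1-fold, 88% of 1.25-fold, 98% of 1.5-fold and 100% of 2-fold ones were recovered. In that run 2.76% of calls were false, and the recovery rates are rough because few genes carried each fold change. Replicate pairs differed by a chi-square per degree of freedom of 2.27 to 11.9, above sampling noise. Exact tests permuted all arrangements of the 12 libraries or all signs over 6.

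The receptors and lists were chosen with earlier results of these data known. Named are the receptors, up to 8 called and 3 other genes per pathway list, 4 of the highest level and any called per marker list, called genes of 5 annotation groups chosen after the table was seen, and the 3 most alike genes per receptor. Alternatives were other scalings, filters, pseudocounts of 0.1, 1 and 5 with limma 3.58.1, DESeq2 1.42.0, an exact rank-sum test, a replicate block and each library left out. Some items are not reported here.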

Additional observations from a re-analysis of the deposited data

Results flagged for a closer look

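In 95 groups of 6 values, 8 had a highest or lowest library whose gap to the next took more of the group's range than Dixon's 95% critical value, where chance gives about 4.75. Among the receptors, the ratio of Pparg to Ppard was 1.9 in control replicate 4 against 1.5 to 1.64 in the other controls. The relative length of Ppard was 1.02 in α-asarone replicate 1 against 1.16 to 1.21, and that of Pparg 0.745 in α-asarone replicate 5 against 0.78 to 0.795. Of the other genes, Nr2f6 had 23.4 TPM in α-asarone replicate 6 against 20.4 to 21.1, and Wdr77, an annotated receptor coactivator gene, 30.8 TPM in control replicate 1 against 25.1 to 26.9. Control replicate 4 stood apart for Plin4, with 12.9 TPM against 11.4 to 11.9, and for Hoxa4, with 2.42 TPM against 0.726 to 1.35. Cd79a had 0.099 TPM in control replicate 2 and 0 in the other controls.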

How the results depend on the processing

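With table totals as library sizes, the calls were 127 higher and 62 lower (67.2% higher, beside 42.6% of the 155 calls with TMM factors), and the log2 fold changes of Kat2b and Apoe became 0.022 and 0.023. With each library left out, 138 to 152 genes were called. Log2 fold changes then ranged from -0.14 to -0.085 for Ppard, -0.048 to 0.0025 for Kat2b, -0.050 to 0.0013 for Apoe and -0.055 to 0.38 for Hoxa4. Log2 ratio changes ranged from -0.19 to -0.13 for Rarg to Pparg, -0.17 to -0.094 for Rarg to Ppard and -0.021 to 0.080 for Pparg to Ppard. The change in the share of Pparg ranged from -0.67 to 0.29 percentage points. Relative length changes (log2) ranged from -0.0063 to 0.019 for Pparg, -0.036 to 0.023 for Ppard and -0.0013 to 0.0092 for Nr1h3. Estimated counts, not divided by length, gave log2 level ratios in controls and with α-asarone of 0.87 and 0.68 for Rarg to Pparg, 2.49 and 1.74 for Rarg to Nr1h3, 0.093 and 0.15 for Pparg to Ppard, and 1.52 and 0.92 for Ppard to Nr1h3, an alternative chosen after seeing the data. They gave a change of 0.70 percentage points in the share of Pparg. Replicate numbers did not pair the libraries (correlations of deviations -0.0031 to 0.128, 2 of 6 best with their own number). A replicate block called 168 genes, left the ratio change of Rarg to Pparg at -0.16 without a call (exact adjusted p = 0.075) and brought that of Rarg to Ppard, -0.13, past the threshold (exact adjusted p = 0.0469). For single genes that are not receptors, 558 of 597 values kept direction and call. Cd36, Sox9, Wdr77, Brd8 and Tbx2, whose groups all overlapped in TPM, lost theirs in the exact rank-sum test, and the cause was not tested. Counting error of Nr1h3, with 188 to 365 counts, was 6.73% of its mean in controls, where libraries varied by 11.6%.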
